A study of Mus musculus with 20 samples.

Results

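Regions of open chromatin that were found under every condition of the study are described here. All peaks of 10 deposited peak lists were merged into union regions where they shared at least 1 bp, on chromosomes 1 to 19 and X, and a union region was kept when every list had at least 1 peak in it. This gave 19074 constitutive regions of 101385 union regions, or 18.8%, and they covered 20.1 Mb. The regions were thus chosen by the presence of peaks in the lists themselves, so their number and their strength are descriptions, with no test.

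The assay was ATAC-seq, where a transposase inserts sequencing adapters into accessible DNA, in epidermal cells that the labels call Lrig1 GL and Sca1+. All mice carried the genotype Lrig1CreER/Rosa-TdTomato, in which Cre made by Lrig1-expressing cells switches on a red fluorescent protein, and no group of another genotype was analysed here. The 20 libraries form 10 groups of 2. The wound course has homeostasis, 1 week after a first wound, 8 weeks after a first wound and 1 week after a second wound. The treated epidermis has wound with UVB, UVB alone, PRT4165 (an inhibitor of the H2A ubiquitin ligase activity of Polycomb complex PRC1) and vehicle. The last groups are cells grown in culture from a distal memory region and from a control region without memory, both taken 8 weeks after a first wound. Each group has 1 list made by the authors from both libraries, so the spread between libraries is unknown and groups could not be tested against each other. The read depth of the libraries is unknown.

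Most genes that all cells need are read from promoters rich in CpG dinucleotides, which stay free of nucleosomes in nearly every tissue. Factors such as the ETS family, NRF1, YY1, SP and KLF proteins, NFY, CREB and ZFP143 bind short sequences close to the start of such genes. Enhancers lie further from genes and their opening depends more on the cell type and its state. AP-1, a dimer of Fos and Jun proteins, opens many enhancers in keratinocytes and after stress.

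The promoter windows below are examples of constitutive starts from the top of the order, and are not typical of them. For each motif, the window shown is the one whose region stood highest in the order by signal value among the windows that hold the motif and the strongest summit of all 10 lists. Each window runs from 250 bases before to 50 bases after a gene start, is printed 5′ to 3′ along the gene's strand, and comes from RefSeq's promoters of GRCm38.p6, the assembly of mm10. Capitals mark the motif, which stands in its reverse complement for Gm51425 and Pnpt1.
Gm51425 (ETS motif; chr17:17004866-17005165, plus strand): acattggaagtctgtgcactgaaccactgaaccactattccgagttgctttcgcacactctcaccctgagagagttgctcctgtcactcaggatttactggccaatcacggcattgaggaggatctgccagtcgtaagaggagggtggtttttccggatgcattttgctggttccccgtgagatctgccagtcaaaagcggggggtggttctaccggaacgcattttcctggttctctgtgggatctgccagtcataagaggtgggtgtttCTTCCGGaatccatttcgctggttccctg
Exoc4 (YY1 motif; chr6:33248878-33249177, plus strand): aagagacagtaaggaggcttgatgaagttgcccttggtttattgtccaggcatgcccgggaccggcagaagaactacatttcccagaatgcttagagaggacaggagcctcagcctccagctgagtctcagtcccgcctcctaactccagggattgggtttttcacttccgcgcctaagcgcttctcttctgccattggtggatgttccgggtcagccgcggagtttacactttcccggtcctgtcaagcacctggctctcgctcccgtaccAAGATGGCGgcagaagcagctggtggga
Kifap3 (NRF1 motif; chr1:163779333-163779632, plus strand): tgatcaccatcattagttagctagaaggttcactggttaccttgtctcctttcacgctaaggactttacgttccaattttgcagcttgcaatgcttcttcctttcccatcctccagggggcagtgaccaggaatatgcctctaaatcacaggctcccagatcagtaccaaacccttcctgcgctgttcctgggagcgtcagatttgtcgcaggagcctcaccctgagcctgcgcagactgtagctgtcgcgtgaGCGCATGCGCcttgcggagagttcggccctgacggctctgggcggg
Mterf1a (CRE motif; chr5:3893884-3894183, minus strand): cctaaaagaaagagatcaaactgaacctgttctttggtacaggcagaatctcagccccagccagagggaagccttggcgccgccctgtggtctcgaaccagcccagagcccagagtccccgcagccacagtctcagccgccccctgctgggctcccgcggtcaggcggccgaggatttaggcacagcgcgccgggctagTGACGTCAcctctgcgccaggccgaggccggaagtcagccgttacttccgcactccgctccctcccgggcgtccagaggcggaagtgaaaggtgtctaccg
Chchd3 (ZFP143 motif; chr6:33060211-33060510, minus strand): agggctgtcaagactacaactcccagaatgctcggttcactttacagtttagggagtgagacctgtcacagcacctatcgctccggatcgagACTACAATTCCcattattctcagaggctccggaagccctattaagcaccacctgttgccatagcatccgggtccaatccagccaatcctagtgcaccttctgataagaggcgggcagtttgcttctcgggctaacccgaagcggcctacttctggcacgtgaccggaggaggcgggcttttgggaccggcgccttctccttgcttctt
Pnpt1 (SP/KLF motif; chr11:29130494-29130793, plus strand): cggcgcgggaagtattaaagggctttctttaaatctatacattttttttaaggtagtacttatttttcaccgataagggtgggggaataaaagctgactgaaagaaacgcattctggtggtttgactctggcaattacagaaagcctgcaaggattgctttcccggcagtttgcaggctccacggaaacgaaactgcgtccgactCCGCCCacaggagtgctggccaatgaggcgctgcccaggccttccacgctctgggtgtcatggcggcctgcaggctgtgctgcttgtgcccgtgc
Depdc1a (AP-1 motif; chr3:159495183-159495482, plus strand): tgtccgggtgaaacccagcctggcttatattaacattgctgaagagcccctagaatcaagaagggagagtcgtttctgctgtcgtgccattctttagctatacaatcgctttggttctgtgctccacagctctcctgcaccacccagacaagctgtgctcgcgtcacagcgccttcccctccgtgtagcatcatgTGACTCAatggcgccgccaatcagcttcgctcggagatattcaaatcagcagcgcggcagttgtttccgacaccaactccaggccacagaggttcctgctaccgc

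The ETS letters of Gm51425, a predicted gene, lie from 21 to 27 bases after the start, and the summits of the 10 lists lay from 118 to 100 bases before it. Exoc4, a subunit of the exocyst that tethers secretory vesicles, has the YY1 letters from 22 to 30 bases after its start. The signal value, the enrichment that the authors gave each peak, stood at 27.6 for homeostasis, 29.5 for 1 week after the first wound, 25.4 for 8 weeks and 28.1 for the second wound. It was 35.1 with wound and UVB, 34.1 with UVB, 34.4 with PRT4165, 34.3 with vehicle, 23.8 in the cultured distal list and 26.4 in the cultured control list. Ranked by signal value among the 19074 members of a list, from 0 for the weakest to 100 for the strongest, Exoc4 had a percentile of 98.5 or higher in every list. The 10 summits of the Exoc4 region fell within 21 bp of each other.

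Kifap3, which encodes a subunit of the kinesin-2 motor, holds the NRF1 letters from 4 to 13 bases after its start and stood between percentiles 91.9 and 99.6. Mterf1a, a mitochondrial transcription termination factor, holds the CRE letters from 51 to 44 bases before its start and stood between percentiles 94.4 and 99.9. Chchd3, a protein of the mitochondrial inner membrane, holds the ZFP143 letters from 158 to 148 bases before its start. Pnpt1, a mitochondrial RNA-degrading enzyme, holds the SP/KLF letters from 45 to 40 bases before its start, and its summits spread over 11 bp. Depdc1a, a gene of dividing cells, holds the AP-1 letters from 55 to 49 bases before its start, and its 10 summits lay from 70 to 52 bases before the start. These printed windows were picked for their rank, and all but Kifap3 and Mterf1a stayed above percentile 94.5 in every list.

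The number of lists that held a union region was most often 10, 1 or 2. There were 17373 regions in 1 list and 16030 in 2 lists, then between 5039 and 8426 for each number from 3 to 9, and 19074 in all 10. The 5039 regions found in 9 lists most often lacked the 8-week list (1430 regions), the cultured distal list (1352), the homeostasis list (1175) or the list after the second wound (619). The UVB list was the missing one for 5 of them, vehicle for 7, PRT4165 for 18, wound and UVB for 21, 1 week after the first wound for 112 and the cultured control for 300. The lists that were most often missing are the 4 shortest, with 34640, 45703, 35191 and 42190 regions, against 49072 to 73337 regions in the other 6 lists. Accordingly constitutive regions made up 55.8% of the union regions of the homeostasis list and 26.6% of those of the UVB list.

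The regions just outside the rule were not all weak. The strongest regions of 9 lists were near Oxr1, a gene of oxidation resistance, and Ccl21a, a chemokine gene, both missing from the cultured distal list, and 688 kb from the start of Cited2, missing from homeostasis. Their median percentiles within the whole lists that held them were 99.8 (Oxr1), 99.4 (Ccl21a) and 99.5 (Cited2). Over all members the median of this percentile was 72.8, against 55.0 for the regions in 9 lists. The weakest members by their highest percentile lay 831 kb from the start of Tyrp1, inside Plec and inside Irf2bp2, and none of the 3 passed percentile 0.4 among the members in any list.

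Constitutive regions sat at gene starts far more often than the others. The summit of the strongest peak lay within 1 kb of a start for 8854 of 19074 members, or 46.4% (Wilson 95% interval 45.7 to 47.1), and for 6037 of 82311 other union regions, or 7.33% (7.16 to 7.51). The share lay between 4.60% and 9.24% for regions of 1 to 8 lists, with 4.83% in 1 list and 8.97% in 8, and was 19.7% in 9 lists. Regions of 9 lists thus lay closer to the regions of 8 lists than to the constitutive ones. The median distance to the nearest start was 2.23 kb for members and 25.2 kb for the others. Intervals cover counting error only, and neighbouring regions are not independent.

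**Figure D1:**
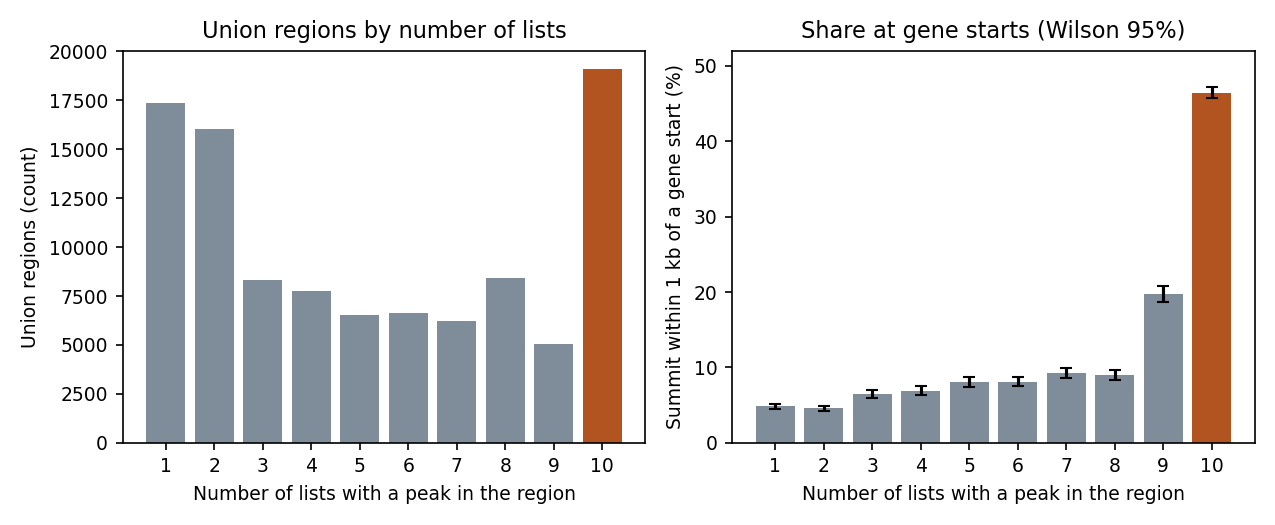
Left, the number of union regions (bars) by the number of lists with a peak in them, from 1 to 10; right, the share of each class whose summit lies within 1 kb of a gene start, with Wilson 95% intervals. The class of all 10 lists, in brown, is the largest with 19074 regions and has a share of 46.4% at starts, against 19.7% for 9 lists and at most 9.24% for fewer.

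Not all members are promoters. The other 10220 members lay more than 1 kb from any start, and they were 11.8% of the 86494 union regions there. Of these, 2788 lay 1 to 10 kb from the nearest start, 4415 lay 10 to 50 kb, 1523 lay 50 to 100 kb and 1494 lay further away. Summits lay inside a gene for 51.3% of members and 51.3% of the other regions, so position inside genes did not separate the classes. Members at starts had a median union width of 1175 bp and those away from starts 861 bp. A union region widens with each list added to it: within a single list the median width of members ran from 712 to 839 bp, against 442 to 562 bp for the list's other regions.

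The 10 lists placed their summits close together in most members. The strongest summits of the 10 lists spread over a median of 41 bp (quartiles 26 and 99 bp), and over 50 bp or less in 11192 members (58.7%). The median spread was 39 bp at starts and 43 bp away from them. In 94.1% of members the spread was at most 500 bp. The 3 widest members were at Gm20783 (3256 bp), at Tsc22d2 (3107 bp), a leucine zipper family gene, and at Dyrk2 (3071 bp), a kinase gene. Tsc22d2 also had the most peaks, 86 over the 10 lists, followed by a member inside Nr3c1, the glucocorticoid receptor gene, with 82, and Gm20783 with 77.

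At starts whose strand is known, the summits of 7400 members had a median position 26 bp before the start (quartiles 81 bp before and 15 bp after), and 77.8% of them fell into the 300-base promoter window. The 4572 other union regions at such starts had a median of 11 bp before the start with wider quartiles, 116 bp before and 182 bp after, and 48.9% fell into the window. Constitutive starts were also more often shared by genes on both strands: 872 of 7400 (11.8%, 11.1 to 12.5) had starts of opposite strands within 1 kb of the summit, against 154 of 4572 (3.37%, 2.88 to 3.93).

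**Figure D2:**
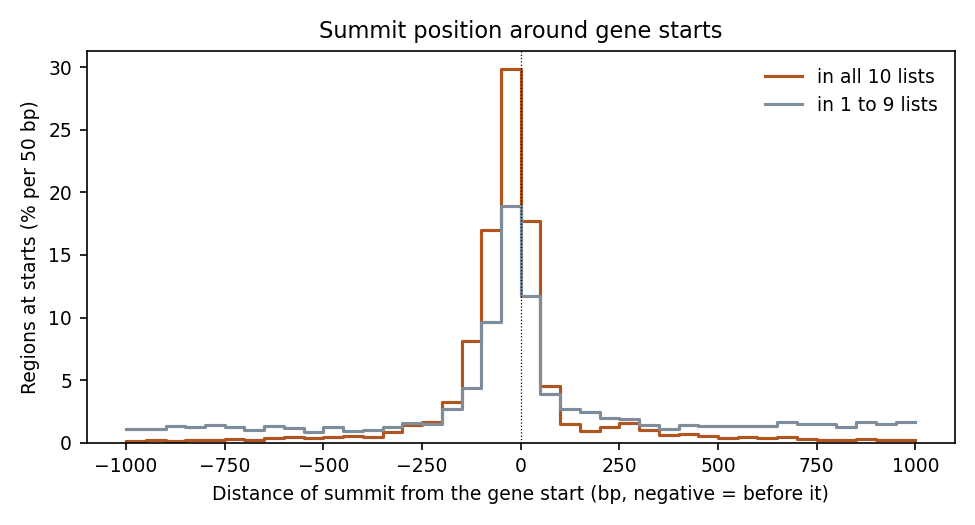
Position of the strongest summit around the nearest gene start of known strand, in bp, for 7400 regions in all 10 lists and 4572 regions in 1 to 9 lists, as a percentage per 50 bp. Both peak just before the start, and 77.8% of the first set against 48.9% of the second lie from 250 bp before to 50 bp after it.

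A constitutive region stood at a start of 9635 of 21631 protein-coding genes, or 44.5%, while 7859 genes (36.3%) had no union region there. With either end of a gene taken as its start, the share was 41.9%. Between 1.53% and 4.13% of genes had their most widely held region in any given number of lists from 1 to 9. A gene start was therefore in most cases either in all lists or in none. Genes of general cell functions held constitutive starts for 198 of 210 members of 7 lists (94.3%, 90.3 to 96.7), against those 44.5% over all coding genes. For the 26S proteasome, which degrades ubiquitinated proteins, it was 31 of 31, and for the spliceosome 29 of 29. It was 28 of 29 for translation initiation factors and tRNA synthetases, with Vars in 9 lists, and 32 of 34 for cytosolic ribosomal proteins, with Rpl4 in 9 and Rpl19 in 8. RNA polymerase II and Mediator genes had 29 of 31, with Polr2c in 9 lists and Polr2f in 8.

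Nuclear genes of the respiratory chain had 27 of 30, and among those without were Ndufa1 (8 lists) and Ndufa9 (7 lists). The mitochondrial ribosome had 22 of 26, without Mrpl3 and Mrps5 (9 lists each), Mrpl22 (7 lists) and Mrpl4 (no list). Mrpl4 has 1 constitutive region assigned to it whose strongest summit lies beyond 1 kb of its start, so the rule of the strongest summit counts it as without. The factors that bind such promoters carried constitutive starts themselves in 22 of 22 cases, among them Nrf1, Yy1, Gabpa, Sp1, Nfya, Creb1 and Zfp143. Within this list the region of Nfyc, a subunit of NFY, stood at percentile 96.3 and that of Usf2 at 9.0.

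Genes of chromatin architecture, cohesin, CTCF and condensin, had 13 of 15, without Rad21 and Nipbl. Polycomb subunits, which modify histones at silenced genes, and H2A deubiquitinases together had 22 of 26, without Phc3 and Cbx2 (9 lists each), Cbx7 (8 lists) and Cbx6 (1 list). Rnf2 and Ring1, which encode the H2A ubiquitin ligases of PRC1, both had a constitutive start, at median percentiles 59.9 and 7.4. Mysm1, an H2A deubiquitinase, stood at 95.1 and Bmi1, a partner of the ligases, at 3.0.

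**Figure D3:**
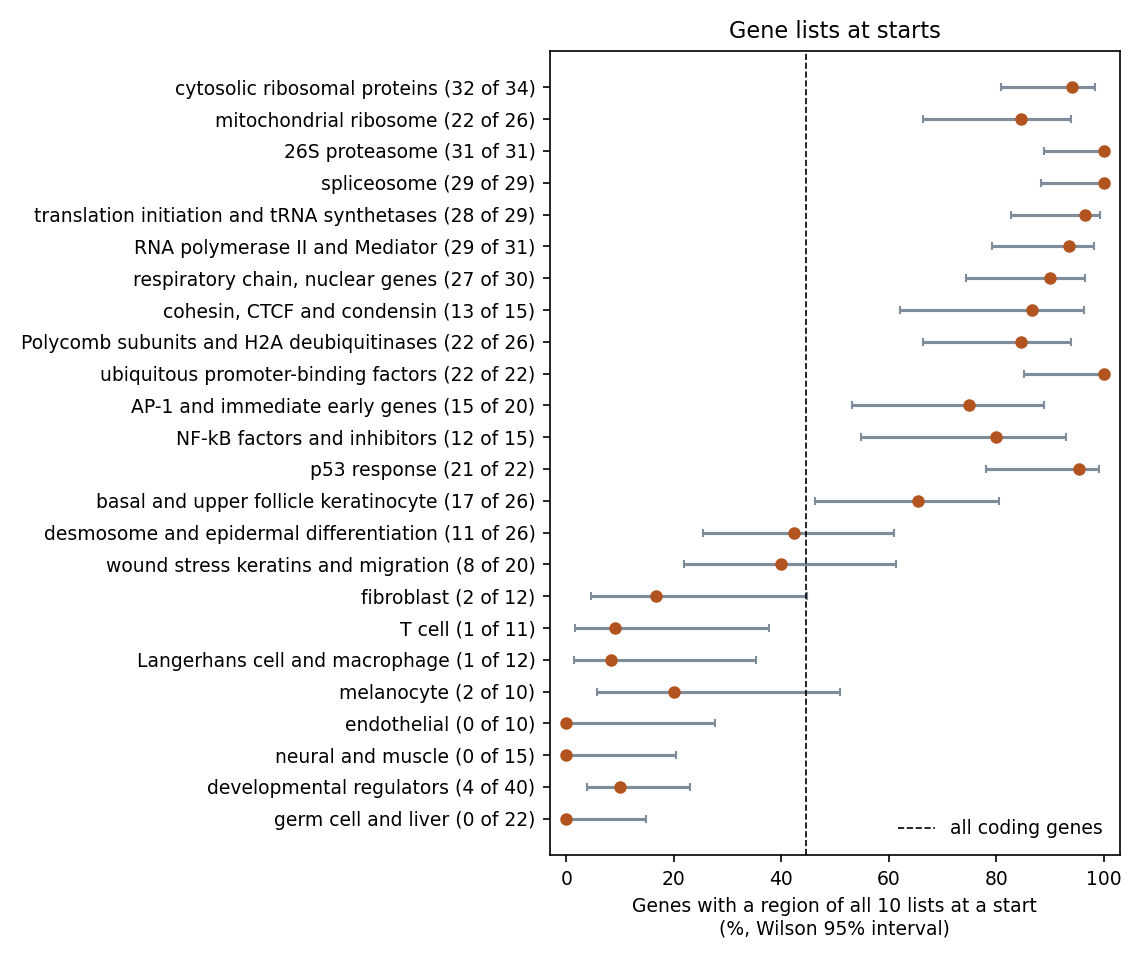
Share of the genes of 24 lists that have a region of all 10 lists within 1 kb of a start, with Wilson 95% intervals, and the share over all coding genes as a dashed line at 44.5%. The 13 lists of general, regulatory and inducible genes at the top lie between 75% and 100%. The 8 lists of other cell types, developmental regulators and germ cell and liver genes at the bottom lie at 20% or below.

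Genes of inducible pathways, their regulators included, also had constitutive starts. The p53 response list had 21 of 22, with Trp53 itself in 4 lists. NF-kB factors and inhibitors had 12 of 15, without Rela (9 lists), Tnip1 and Bcl3 (2 lists each). AP-1 and immediate early genes had 15 of 20, without Junb and Egr3 (9 lists each), Zfp36 (8 lists), Jund and Batf (no list). With the strongest 50% of each list the share of this list was 5%, below the 28.2% of all coding genes, so its place above all genes did not hold there. These genes had many further constitutive regions: 72 of the 224 union regions assigned to the AP-1 list were members (32.1%), and away from starts 56 of 196 (28.6%), against 11.8% of all union regions away from starts. Klf6 had 10 of 26 regions in all lists, Myc 9 of 25, Fosb 6 of 8 and Atf3 6 of 14.

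The order within the members was different for these lists. The constitutive starts of AP-1 and immediate early genes had a median percentile of 6.56 by signal value, against 55.6 for all members at starts, 74.0 for the proteasome, 75.6 for the respiratory chain and 78.7 for the mitochondrial ribosome. With −log10 p, the authors' other measure of peak strength, the AP-1 list had a median percentile of 43.6, all starts 60.6, the proteasome 66.9, the respiratory chain 72.3 and the mitochondrial ribosome 58.6. The low place of the AP-1 list thus depended on the measure, and the reason for the difference was not tested.

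A pair of starts, Fos and Psma4, shows the contrast; they were picked with their values known. Fos had a signal value of 6.01 in homeostasis, next to 5.63 and 6.89 in the lists of 1 week and 8 weeks, 5.74 in that of the second wound, 5.28 with wound and UVB, 5.59 with UVB, 9.05 with PRT4165, 7.54 with vehicle, 8.05 in the cultured distal and 9.20 in the cultured control list. At Psma4, a proteasome subunit, it was 21.0, 25.7, 25.7 and 27.2 along the wound course in the same order, 32.8 with wound and UVB, 29.7 with UVB, 28.2 with PRT4165, 27.6 with vehicle, 20.5 in the cultured distal and 22.2 in the cultured control list. In each list Psma4 stood at percentile 94.8 or higher and Fos at 24.3 or lower. Jun stood at a median percentile of 5.51, Myc at 2.21 and Klf6 at 44.4 by signal value, and at 70.5, 25.6 and 92.8 by −log10 p.

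Keratinocyte genes were divided. Of the basal and upper follicle genes, 17 of 26 had a constitutive start (65.4%, 46.2 to 80.6), of desmosome and differentiation genes 11 of 26 (42.3%), and of wound stress keratins and migration genes 8 of 20 (40.0%), the last pair near the 44.5% of all coding genes. With the strongest 50% of each list the 3 shares were 23.1%, 23.1% and 10%, all below the 28.2% of all coding genes. In the first list Lama3 and Itgb1, which anchor basal cells to the basement membrane, stood at percentiles 78.8 and 74.2. Lrig1, whose Cre allele marks the sorted lineage, had a constitutive start and 8 of its 26 regions among the members. Over all union regions the share of members was 18.8%. At the Lrig1 start the signal value ran from 9.72 to 16.6 over the lists and the percentile from 32.2 to 79.1. Krt14, the keratin of basal cells, stood low, at a median percentile of 1.06, with a signal value of 4.57 to 6.47, and its strongest summit lay 966 bp from the start. By −log10 p its median percentile was 14.4.

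Krt5 had a region at its start in 8 lists and Ly6a, the gene of Sca1, in 4. Trp63, the regulator of stratified epithelium, had none within 1 kb of a start, and 3 of its 38 regions were constitutive, a share below the 18.8% of all union regions. Plet1, Cdh1 and Itga6 were constitutive, and Lgr6 and Krt79, genes of the upper follicle, had starts in 7 and 5 lists. Of the desmosome and differentiation genes Prdm1, Sprr1a and Dsc3 stood highest, at 81.8, 71.9 and 70.7. Among other differentiation genes, Krt1 and Krt10 had a start region in 3 lists each, and Lor and Flg in none. None of the 30 regions of Tgm3, a transglutaminase of the cornified layer, was constitutive. Of the wound list Ptgs2, Plau and Mmp3 stood highest, at 69.5, 52 and 50.7, and 7 of 24 regions of Ptgs2, the inducible cyclooxygenase, were members.

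Starts of other cell types were mostly not constitutive. Over 6 lists of other cell types 6 of 70 genes had a constitutive start (8.57%, 3.99 to 17.5). Developmental regulators and germ cell and liver genes, 2 lists together, had 4 of 62 (6.45%, 2.54 to 15.4). The 6 genes of other cell types were Col1a1 and Fbln1 of fibroblasts, Cd4 of T cells, Spi1 of macrophages, and Mitf and Pmel of melanocytes. With summits within 500 bp of a start, the T cell and macrophage lists had 0%, so Cd4 and Spi1 dropped out. The fibroblast and melanocyte lists then had 8.33% and 10%, against 16.7% and 20% within 1 kb. Endothelial genes had 0 of 10, neural and muscle genes 0 of 15, and germ cell and liver genes 0 of 22. A start region in 1 to 9 lists was found for 6 endothelial, 5 neural and muscle and 1 germ cell or liver gene. The same held for 4 of 12 fibroblast, 2 of 11 T cell and 3 of 12 Langerhans cell and macrophage genes. Of the other melanocyte genes, Tyr, Tyrp1, Dct, Sox10, Kit, Ednrb and Slc45a2 had a region at their start in no list and Mlana in 2. The Mitf region stood at percentile 97.8, with a signal value from 19.4 to 28.9. Of 40 developmental regulators, the textbook targets of Polycomb, Hoxc13, Pax9, Lhx2 and Barhl1 had a constitutive start, at percentiles 40.1, 73.6, 35.9 and 58.5. A further 19 had a start region in 1 to 9 lists, and 17 had none.

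The promoter windows of constitutive starts had the base composition of CpG islands. The strongest homeostasis summit of a member fell in 6496 windows of 6040 genes, of 21045 windows of 17274 genes. These windows had a median GC content of 62.3%, 23 CpG dinucleotides and an observed to expected CpG ratio of 0.817. The windows printed above had ratios from 0.537 (Gm51425) to 0.740 (Depdc1a), all below this median. The 797 windows with the summit of another homeostasis region had 61.3%, 20 and 0.714, and the 8519 windows without any region had 48.0%, 3 and 0.211. A ratio of at least 0.6 was found in 84.4% of the first set, 63.9% of the second and 9.54% of the third, against 48.1% of all windows. Windows of alternative starts and of neighbouring genes can overlap.

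Motifs were searched as exact letters on both strands, and matches that overlap in part were all kept. None of the words searched contains another. The ETS word, CCGGAAG, capital in the window of Gm51425, was in 24.1% of the windows with a constitutive summit (23.1 to 25.2), in 12.7% with another homeostasis summit, in 2.72% with no region and in 11.7% of all windows. The YY1 word, AAGATGGCG, as at Exoc4, was in 4.06%, 2.76%, 0.164% and 1.84% of these sets in the same order. The NRF1 word, shown in capitals at Kifap3, was in 2.52%, 2.01%, 0.211% and 1.34%. The CRE, TGACGTCA, was in 4.42%, 2.01%, 0.810% and 2.26%. The SP/KLF word, GGGCGG, was in 74.0%, 63.1%, 16.2% and 46.7%. All 5 words were most frequent in constitutive windows and least frequent where no region was found, before base composition was taken into account.

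The NFY word was CCAATCA. The form CCAATGA was counted with it, and together they were in 19.6% of constitutive windows, 9.28% of other open windows, 11.3% of windows without a region and 13.2% of all. Motifs with the opposite order were the AP-1 word, TGANTCA, at 4.77%, 8.66%, 9.43% and 7.04%, and the TATA word, TATAAA, at 5.45%, 7.78%, 21.8% and 12.7%. The E-box, CACGTG, was in 10.8%, 10.5%, 4.39% and 7.91%. The ZFP143 word, shown in capitals at Chchd3, was in 0.970%, 0.753%, 0.0587% and 0.428%, and an RFX word, by its name, in 0.323%, 0.753%, 0.563% and 0.513%. The p53 site was in 0 of 6496 constitutive windows and in 10 of all 21045.

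Base composition differs between the sets, so the shares were also taken among windows with a CpG ratio of at least 0.6. There the ETS word was in 26.1% of 5485 constitutive windows, 15.1% of 509 other open windows and 6.03% of 813 windows without a region, and the NFY words in 19.1%, 7.27% and 9.10%. The YY1 word was in 4.56%, 3.73% and 0.369%. The order of the first pair was the other way for NRF1, at 2.92%, 3.14% and 1.35%, and for the E-box, at 11.4%, 13.4% and 10.3%. The SP/KLF word was in 77.4% (76.2 to 78.5), 74.1% (70.1 to 77.7) and 57.4%, so the first pair of intervals overlapped, and the CRE was in 4.89%, 2.55% and 1.97%. For AP-1 the 3 intervals overlapped, with 3.59% (3.13 to 4.12), 5.30% (3.67 to 7.61) and 4.43% (3.22 to 6.07).

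**Figure D4:**
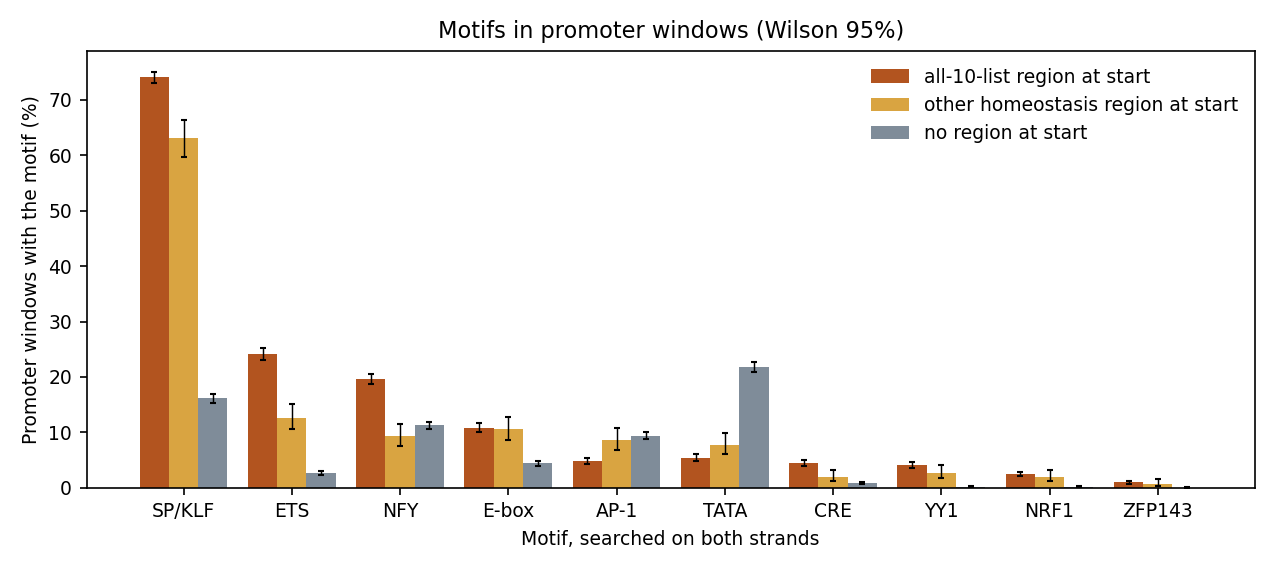
Share of promoter windows that hold each of 10 motifs, with Wilson 95% intervals, for windows with the homeostasis summit of a region of all 10 lists, with the summit of another homeostasis region, and with no region of any list. The ETS word is in 24.1%, 12.7% and 2.72% of these windows and TATA in 5.45%, 7.78% and 21.8%.

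Among the constitutive windows, those with NFY or ETS words also belonged to regions higher in the order. The median percentile was 73.9 for 1275 windows with the NFY letters and 58.5 for 5221 without, and 70.8 for 1567 windows with the ETS letters and 58.5 for 4929 without. For SP/KLF the order was the other way, 60.6 with the letters and 65.9 without. For NRF1 it was 57.1 and 62.0, for CRE 59.1 and 62.0 and for TATA 57.0 and 62.1.

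Strength and position were linked in a way that broke at the very top. The share at starts was 57.8% in the 1908 members with the highest median percentile and 35.2% in the 1907 with the lowest, and it increased at each step between them. Among the strongest 100 members, however, only 37.0% (28.2 to 46.8) were at starts, their median width was 722.5 bp and their median distance to a start 21.4 kb. The first of all lay 13 kb from the start of Abcb11, the bile salt export pump gene of the liver, at chr2:69355469-69355735, and was 267 bp wide. Its summits agreed within 1 bp, and its signal value was between 61.0 and 64.5 in every list. It was followed by narrow regions near Pak3, Eea1, G6pd2, Epm2a, Cdh20, Tra2a, Rimbp3, Nxph1 and Gm20594, all 246 to 500 bp wide and, except for the last, 8.4 kb or further from a start. Each of these 10 members stood at percentile 99.9 or higher in all 10 lists. Without a genome or a list of regions with unreliable mapping, whether these narrow regions are mapped reliably was not tested, so their rank describes the lists and not the openness of the chromatin.

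Narrow members in general were unlike the rest. The 831 members under 500 bp were at a start in 12.9% of cases, against 47.9% of wider members. The strongest members at starts were at Gm20594, Zfp960, Gm51425, Depdc1a, Exoc4, Gm13286, Zbed5, Pnpt1, Gramd1c and Mcm3, the last a subunit of the replicative helicase. All but Gm13286, which fell to percentile 73.0 in the cultured control list, stayed at percentile 95.9 or higher in every list.

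Some genes gathered many constitutive regions. Of the coding genes that are not predicted, 10550 had at least 1 member assigned, 455 had at least 5 and 24 had at least 10. Vav3, an exchange factor for small GTPases, had 13 of its 52 union regions among the members, and Rad51b, a recombination repair gene, 13 of 81. Auts2 had 12 of 84 and Irf2bp2 12 of 33. Maml3, a Notch coactivator, Abcc4, Bach2, Nhsl1, Tenm4 and Vgll4, a cofactor of TEAD proteins, had 11 each. The share of members was 16.0% for Rad51b, 14.3% for Auts2 and 18.3% for Tenm4, below the 18.8% of all union regions. For the other genes named here it lay above, from 23.9% (Abcc4 and Bach2) to 39.3% (Vgll4). Many members thus did not always mean a large share of members. Most of these genes are long, from 109 kb (Vgll4) to 1106 kb (Auts2), but Irf2bp2 spans 5.7 kb and has 11 of its 12 members outside the gene. The regions were assigned by position, which is no evidence that they control the gene.

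Of 1005 microRNA hairpins in RefSeq, 61 (6.07%) lay inside members. Among them were Mir203, an epidermal microRNA, at percentile 0.451, Mir200c and Mir141 in a shared region at 47.1, Mir210 at 66.2 and Mirlet7i at 15.8. They are given as examples picked with their values known, and their members lay 6004 to 13302 bp from a coding gene start. Most of the 61 hairpins were instead in members within 1 kb of such a start. The share of hairpins in other union regions was not taken, so 6.07% has nothing to be set against.

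The order of the members separated cultured from fresh cells. Spearman's rho across the 19074 members was 0.659 to 0.728 in the 16 pairs of a cultured and a fresh list (median 0.682) and 0.813 to 0.962 in the 28 pairs of fresh lists (median 0.871). The 2 cultured lists were alike, at 0.946. Within the wound course rho was 0.861 to 0.898, and among the lists of UVB, wound with UVB, PRT4165 and vehicle 0.914 to 0.962. Regions are not independent, so these are descriptions without a test.

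In both cultured lists 479 members (2.51%) stood at least 25 percentile points above their highest place in all 8 fresh lists, and 488 (2.56%) stood as far below their lowest place. They lay mostly away from starts: 26.9% (23.2 to 31.1) of the first and 13.7% (11 to 17.1) of the second were at a start, against 46.4% of all members. A region inside Slc1a2, a glutamate transporter gene, stood at percentile 84.1 in the cultured distal list and 91.3 in the cultured control list, against 3.4 to 10.5 in the fresh lists. Regions inside Nemp2, Rbms3, Map3k1 and Arhgap32 and one near 4930432M17Rik behaved alike, with 75.9 or higher in both cultured lists and 21.3 or lower in each fresh list.

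In the other direction, a region 70.1 kb from the start of Mbip stood at 15.4 in the cultured distal and 19.1 in the cultured control list, against 96.3 to 99.5 in the fresh lists. A region 1.3 kb from the start of Bglap2, an osteocalcin gene, stood at 9.6 and 18.2, against 91.6 to 99.4. Those near Ccdc150, Mctp2, Chl1 and Arpc1a stood at 25.9 or lower in both cultured lists and at 88.0 or higher in each fresh list. Of the 72 members assigned to AP-1 and immediate early genes, 5 were among the 479 (at Atf3, Fos, Klf6 with 2, and Myc) and 1 among the 488 (at Myc). Over all members the shares were 2.51% and 2.56%. Other lists also had members among the 479: 3 of 40 for the p53 response, 3 of 37 for desmosome and differentiation and 3 of 30 for wound stress. NF-kB factors and inhibitors had 0 of 34. The median percentile of the AP-1 members was 21.3 in the cultured distal and 18.7 in the cultured control list, against 8.51 to 12.7 in the fresh lists. For the p53 response it was 46.1 and 44.8, against 30.4 to 38.7, so a higher place in culture was not particular to AP-1.

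**Figure D5:**
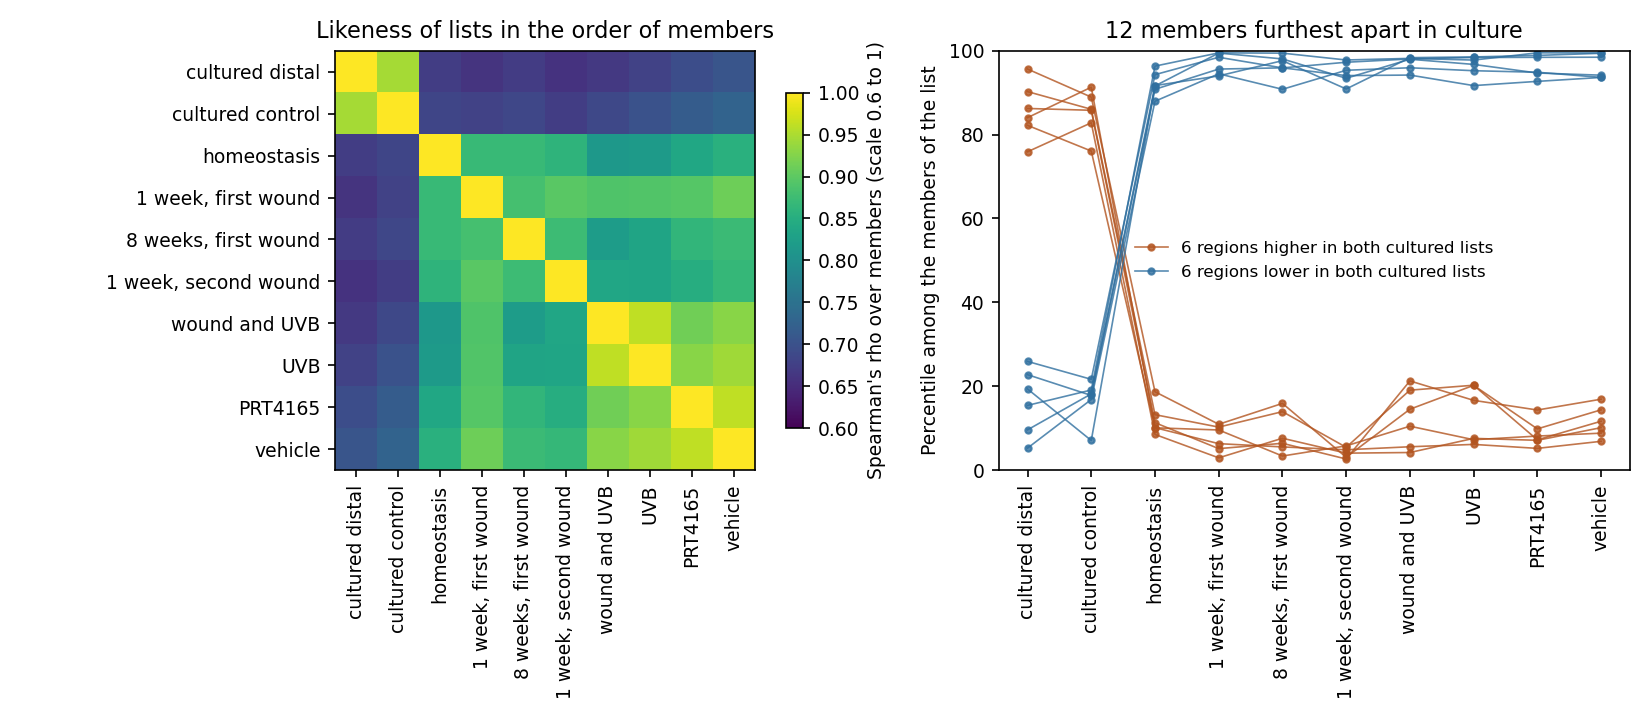
Left, Spearman's rho of the signal values of 19074 regions between each pair of 10 lists, on a colour scale from 0.6 to 1; right, the percentile in each list of the 6 regions that stand furthest above and the 6 that stand furthest below all fresh lists in both cultured lists. The cultured lists pair with fresh lists at 0.659 to 0.728 and with each other at 0.946, and each of the 12 regions on the right has both cultured values on the same side of all 8 fresh values.

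Within the wound course the orders moved moderately. At 1 week after the first wound 1120 members (5.87%) stood at least 25 points higher than in homeostasis and 762 (3.99%) as much lower. At 8 weeks it was 944 (4.95%) and 913 (4.79%), and after the second wound 1032 (5.41%) and 933 (4.89%). These comparisons share the homeostasis list, and their counts are not independent. Members that stood higher were at a start in 24.6%, 21.3% and 28.1% of cases at 1 week, 8 weeks and after the second wound, and those that stood lower in 51.0%, 49.4% and 37.5%, against 46.4% of all members. So the members that stood higher were mostly away from starts in these 3 lists. In homeostasis, members at starts already had a median percentile of 59.7, against 42.3 for those away, which left them less room to rise. How far this sets the shares was not tested. Without values per library it is unknown how much of either count is spread between libraries.

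A region 336 kb from the start of Sucla2 stood at 96.7 at 1 week and 89.7 at 8 weeks, against 12 in homeostasis. Another inside Lpar5, a lysophosphatidic acid receptor gene, stood at 89.1 at 1 week, against 6.5 in homeostasis. One more, 83.3 kb from the start of Ino80d, stood at 92.6, against 10.4. In the other direction at 1 week, the start of Pno1, a ribosome assembly factor, stood at 26.1, against 85.7 in homeostasis, that of Zfp933 at 20.1, against 78.2, and a region near Mbp at 34.5, against 89.3. The homeostasis value stood apart from the others at Sucla2, Lpar5 and Ino80d, where the other 9 lists lay at 46.6 or higher. It also did at Mbp, where they lay at 68.0 or lower. At Pno1 it did not, since 8 weeks (82.6) and the cultured control (75.9) were also high.

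At 8 weeks a region inside Mroh3 stood at 89.1 and one near Nefl at 91.2, against 8.4 and 21.2 in homeostasis. Here too homeostasis stood apart: every other list lay at 56.3 or higher at Mroh3 and 58.9 or higher at Nefl. Vehicle, for one, stood at 63.6 and 74.3. The starts of Fam71e1 and Slc36a1, an amino acid transporter gene, stood at 19.5 and 7.7, against 87.6 and 75.7, and a region inside Pi4kb at 19.7, against 85.0. After the second wound the Mroh3 region stood at 91.4, and regions 35.7 kb from the start of Slc44a1 and 172 kb from that of Barx2 at 86.3 and 87.4, against 16.4 and 18.6 in homeostasis. Homeostasis was the lowest list at Slc44a1 and Barx2, and the other lists lay at 36.5 or higher and 32.0 or higher. A region inside Nav1 stood at 18.4 after the second wound, against 85.4 in homeostasis and 90.4 at 1 week after the first wound, and at 72.1 or higher in every other list. The start of Tnrc6a stood at 14.6, against 77.1 in homeostasis, and a region at the imprinted gene Peg10 at 26.3, against 87.1.

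Between the second and the first wound, both at 1 week, 508 members (2.66%) stood higher after the second and 733 (3.84%) lower. By −log10 p the counts were 603 and 589, so the larger count changed sides. Regions inside Trim69 and Dst, which encodes the dystonin that links keratins to hemidesmosomes, stood at 83.4 and 66.8 after the second wound, against 15.1 and 2.8 after the first, and the start of Prkab2 at 90.6, against 33.9. Lower, besides Nav1, were a region inside Exoc2, at 29.9 after the second wound against 95.7 after the first, and the start of Med27, at 24.5 against 90.2.

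The lists of treated epidermis differed less in their order. They were also the longest lists, with 66531 to 73337 regions, against 34640 to 49072 in the wound course. Their median −log10 p over the members was 247 to 327, against 72.9 to 119. How far length and peak strength set the smaller counts was not tested, so these counts do not rank the treatments against wounding. With wound and UVB 78 members (0.409%) stood at least 25 points higher than with UVB alone and 124 (0.65%) lower. They were led by regions near Btbd35f27 (88.3 with wound and UVB, 37.3 with UVB), Zfand2a (78.5 and 31.0) and Neto1 (78.9 and 40.9), and, on the lower side, Ipcef1 (32.2 and 89.4), Tada1 (21.5 and 76.1) and Ccdc91 (32.2 and 85.4). With UVB 319 members (1.67%) stood higher than with vehicle and 109 (0.571%) lower. A region inside Zbtb20 stood at 88.8 with UVB against 25.3 with vehicle, one 128 kb from the start of Sem1 at 65.3 against 4.5, and one inside Anxa11 at 95.2 against 36.6. The Anxa11 and Sem1 regions were also high with wound and UVB, at 97.3 and 66.6. Lower with UVB were the start of Dera (31.4 against 85.9), a region inside Strap (12.7 against 56.7) and one 459 kb from the start of Jag1 (46.4 against 89.3). The Dera and Strap regions are neighbours on chromosome 6. Ordered by −log10 p, 294 members stood higher with UVB and 408 lower, so the larger count changed sides, and with wound and UVB against UVB the counts were 282 and 292.

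With PRT4165 83 members (0.435%) stood higher than with vehicle and 104 (0.545%) lower, and rho between these lists was 0.962, the highest of all pairs. The region inside Zbtb20 stood at 72.4 with PRT4165 against 25.3 with vehicle, one near Moxd1 at 70.1 against 23.4 and one inside Ddx39a at 66.1 against 22.0. The start of Cdpf1 stood at 13.5 against 55.5, a region inside Nrg2 at 23.0 against 63.0 and the start of Zfp9 at 37.1 against 73.9. The Zbtb20 region is thus named in both comparisons that share the vehicle list. It also stood low in homeostasis (22.7) and after the second wound (20.8), and high in the cultured distal (98.6) and cultured control (95.1) lists. By −log10 p, 143 members stood higher with PRT4165 and 102 lower, so here too the larger count changed sides. The cultured distal and control lists differed by 139 members (0.729%) higher and 220 (1.15%) lower in the distal list. Regions inside Defb46 (59.3 distal, 12.2 control) and Lrrc28 (64.1 and 18.3) and the start of Selenoo (59.9 and 20.01) were the highest, and regions inside Ptpn12 (25.9 and 86.9), Rmdn2 (22.6 and 77.7) and Ppa1 (18.4 and 70.8) the lowest. By −log10 p these counts were 56 and 69.

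Few members kept a fixed place over all 10 lists. The median member moved over 31.8 percentile points between its lowest and its highest list, and 1228 members (6.44%) stayed within 10 points in all lists. This range is taken between the extremes of 10 lists, the cultured lists included. Between the paired lists the median move of a member was smaller, from 4.14 to 8.23 points. Members at starts had a median percentile of 51.8 to 59.7 in the lists and those away from starts 42.2 to 48.4. The 382 members on the X chromosome had a median percentile of 48.7 in homeostasis and 50.7 at 8 weeks, and between 58.8 and 70.2 in the other 8 lists. The number of peaks on the Y chromosome also differed between lists, from 3 to 28, and the part of sex in the order of members was not tested.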

How the data were processed

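ATAC-seq libraries of sorted mouse epidermal cells were analysed as 10 peak lists, 1 per group of 2 libraries, grouped by the labels. Per the submitters' processing notes the genome build is mm10. Not given in the sources used here: which aligner and peak caller were run, how deep the libraries were, and whether reads were shifted for Tn5. The list names, per the labels, mark peaks kept as reproducible between replicates. The deposited columns hold a score, a signal value (an enrichment of the peak), a −log10 p-value and the offset of the summit, all as the authors made them, and the score was used for no result.

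Peaks were merged at an overlap of 1 bp, and in each list a region took the signal value and summit of its strongest peak. The counts of union and constitutive regions were equal with bedtools 2.31.1. The percentile of a member is its rank by signal value among the 19074 members of a list, so that lists of different length can be set side by side; signal values themselves are not compared between lists. Genes came from the RefSeq table of GRCm38.p6. Starts are the 5′ end and the tabled starts for 17274 coding genes with a known strand, and both ends of the span for 4357 others. This departs from the plan to use a single kind of start. A summit within 1 kb of a start is at the start. A region was assigned to the coding gene around its summit (the shortest, if several) and otherwise to the nearest within 100 kb. A gene of a list counts as constitutive by the strongest summit of its region. No genome was used, so sequences away from promoters, exons, introns and UTRs were not analysed here.

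The members, the gene lists and the motifs were chosen with earlier results of these data known. Named regions follow a rule: the 10 strongest members and the 10 strongest at starts, the genes with the most members, the 3 highest and 3 lowest in each paired comparison, the widest and those with the most peaks, and in each gene list the few genes with or without a constitutive start or else the 3 highest. Other genes named were chosen with values known, as were the cultured against fresh comparison and the windows of high CpG ratio. Intervals are Wilson 95% intervals and cover counting error only. Some genes that this rule names are not reported here. The code was tested on simulated data. The software was pandas 2.3.3, scipy 1.17.1 and numpy 2.4.6 under Python 3.11.15, with matplotlib 3.10.9 for plots.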

Additional observations from a re-analysis of the deposited data

Results flagged for a closer look

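Peaks on the Y chromosome, which the choice of regions leaves out, were more numerous in 6 lists than the 4 peaks of the homeostasis list. There were 10 such peaks at 1 week after the first wound, 14 at 1 week after the second wound, 15 with wound and UVB, 6 with vehicle, 24 in the cultured distal list and 28 in the cultured control list. The labels used here give no sex for any group.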

How the results depend on the processing

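No paired analysis was possible because the lists hold no values per library, and for the same reason no replicate could be left out. The number of constitutive regions was 19074, and it was 9359 with the strongest 50% of each list; under the other alternatives, which changed the overlap, the length of the lists or the lists required, it ran from 13316 to 25857, within 1.5 times of that number. The share of members at starts (46.4%) was 43.4% within 500 bp, 49.5% within 2 kb, 57.6% with the strongest 50%, 50.9% with lists of equal length, 42.2% with either end of every gene, 40.1% with genes of known strand, and 47.9% for members of 500 bp or wider; that of the other regions (7.33%) was 5.23%, 11.1%, 11.8%, 10.6%, 7.75% and 5.76% under the first 6 of these. Genes with 5 or more members numbered 459, predicted genes included, and 290 within 20 kb. The share of general genes with a constitutive start (94.3%) was 72.9% with the strongest 50%, where AP-1 genes had 5% and basal and upper follicle genes 23.1%, and that of all coding genes (44.5%) was 41.8% within 500 bp, 46.6% within 2 kb, 28.2% with the strongest 50%, 41.9% with either end and 43.7% where the start lies inside a member. Ordered by −log10 p, members that moved by 25 points numbered 282 higher and 292 lower with wound and UVB, 408 lower with UVB, 143 higher with PRT4165, 56 higher and 69 lower in the cultured distal list and 734 lower in both cultured lists, so that more members stood lower than higher with UVB, 408 against 294, more higher than lower with PRT4165, 143 against 102, and more higher than lower after the second against the first wound, 603 against 589. At 50 points the counts were 73 higher and 8 lower at 1 week, 51 and 30 at 8 weeks, 90 and 37 after the second wound, 6 and 32 for the second against the first wound, 1 and 4 with wound and UVB, 7 and 1 with UVB, 0 and 0 with PRT4165, 0 and 4 in the cultured distal list, and 39 and 65 for both cultured lists. The median rho of fresh with cultured lists was 0.635 by −log10 p. For windows whose start lies inside a member, motif shares were 21.7% for ETS, 3.60% for YY1, 71.4% for SP/KLF, 16.6% for NFY (12.2% for CCAATCA and 5.83% for CCAATGA alone) and 3.77% for CRE. Either end of every gene, genes of known strand, starts inside a member, members of 500 bp or wider and the settings for cultured lists were added after seeing the data. The cause of these shifts was not tested. The shortest lists limit which regions can be constitutive.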
